A study of Mus musculus with 6 samples.

Results

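The genes described here are 31 transcripts of mitochondrial fatty acid oxidation and ketogenesis, with the regulators and PPAR-alpha responsive genes that accompany them, in mouse liver. They were chosen by gene symbol from a fixed list of names, all 31 names were found among the 56674 rows of the count table, and all 31 passed the filter on low counts. The liver RNA came from C57BL/6 mice, an inbred strain, all male and reared for 71 weeks. The control group (3 libraries) had normal chow, and the PB-MP group (3 libraries) had chow containing PB-MP, a polypropylene black microplastic. The series asked whether prolonged intake of this plastic alters hepatic gene expression. Dose and particle size are not given in the labels. Whether each library is a different animal is not said in the labels, so p-values measure the spread between these libraries, which may be technical.

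In hepatocytes a fatty acid is bound in the cytosol, activated to an acyl-CoA and moved into the mitochondrion as an acylcarnitine, where the beta-oxidation spiral shortens it by successive dehydrogenation, hydration, dehydrogenation and thiolysis. Electrons leave the spiral through NADH and through the electron transfer flavoprotein, and the acetyl-CoA that builds up in fasting is turned into ketone bodies for export. PPAR-alpha, a nuclear receptor that binds DNA with a retinoid X receptor, switches on many of these genes in the fasted liver.

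Counted reads per library ran from 68357478 to 112566641, and the lowest count of any member in any library was 124 reads, for Fgf21. Values below are CPM, read counts brought to a common library total and scaled by TMM (trimmed mean of M-values), unless stated otherwise. The hepatocyte markers were abundant in all 6 libraries, with sums from 65736 to 76397 CPM for control and from 68743 to 81131 CPM for PB-MP. The members together took 1.02% to 1.25% of the counted reads in control and 0.985% to 1.40% in PB-MP. Library composition moved with diet: the 13 mRNAs of the mitochondrial genome took 14.2% to 15.1% of reads in control and 8.73% to 10.1% in PB-MP, and all 3 PB-MP libraries had the larger TMM factors (1.04 to 1.12 against 0.887 to 0.961). The 18S ribosomal RNA (Rn18s) took 2.92%, 11.2% and 1.15% of reads in control replicates 1, 2 and 3. In PB-MP replicates 1, 2 and 3 it took 3.61%, 9.42% and 0.707%. The part of these differences in the values below was not tested.

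No member differed between the diets past the threshold. Of 31 members, 0 had an edgeR adjusted p below 0.05, beside 0.00% of all 17871 genes tested, and the smallest adjusted p of a member was 0.385 (edgeR quasi-likelihood test, Benjamini-Hochberg adjustment over all genes). DESeq2 called 0 members as well, beside 3.03% of the genes it tested. With TMM scaling, at an unadjusted edgeR p below 0.05, there were 3 members, Acads, Decr1 and Vnn1, all lower in PB-MP (9.68% of members, beside 4.74% of all genes lower). No member was higher at that level, beside 7.35% of all genes. These counts turned with the scaling: with library size only, and with upper-quartile scaling, 0 members were lower and 1, Acot3, was higher. At a minimum count of 50 there were 2 lower, Acads and Vnn1, and 1 higher, again Acot3. The 3 PB-MP libraries all lay below the 3 control libraries for 4 members, Acads, Acadvl, Decr1 and Etfb (12.9%, beside 8.49% of all genes). They all lay above for 0 members, beside 11.4% of all genes.

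The members had narrower intervals than the typical gene. All members averaged at least 1 CPM, as did 12546 of the 17871 genes tested. The shares of all genes below are not matched for level. The 95% interval of the log2 fold change (PB-MP over control) lay within -1 to 1, that is within 2-fold, for 26 of 31 members (83.9%), beside 45.7% of all genes. It lay within 1.5-fold for 10 members (32.3%), beside 11.7% of all genes. The 5 members for which a 2-fold difference was within the interval were Ppara, Creb3l3, Fgf21, Pdk4 and Vnn1, that is the regulators and 2 PPAR-alpha responsive genes, and none of the enzymes of the spiral.

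**Figure D1:**
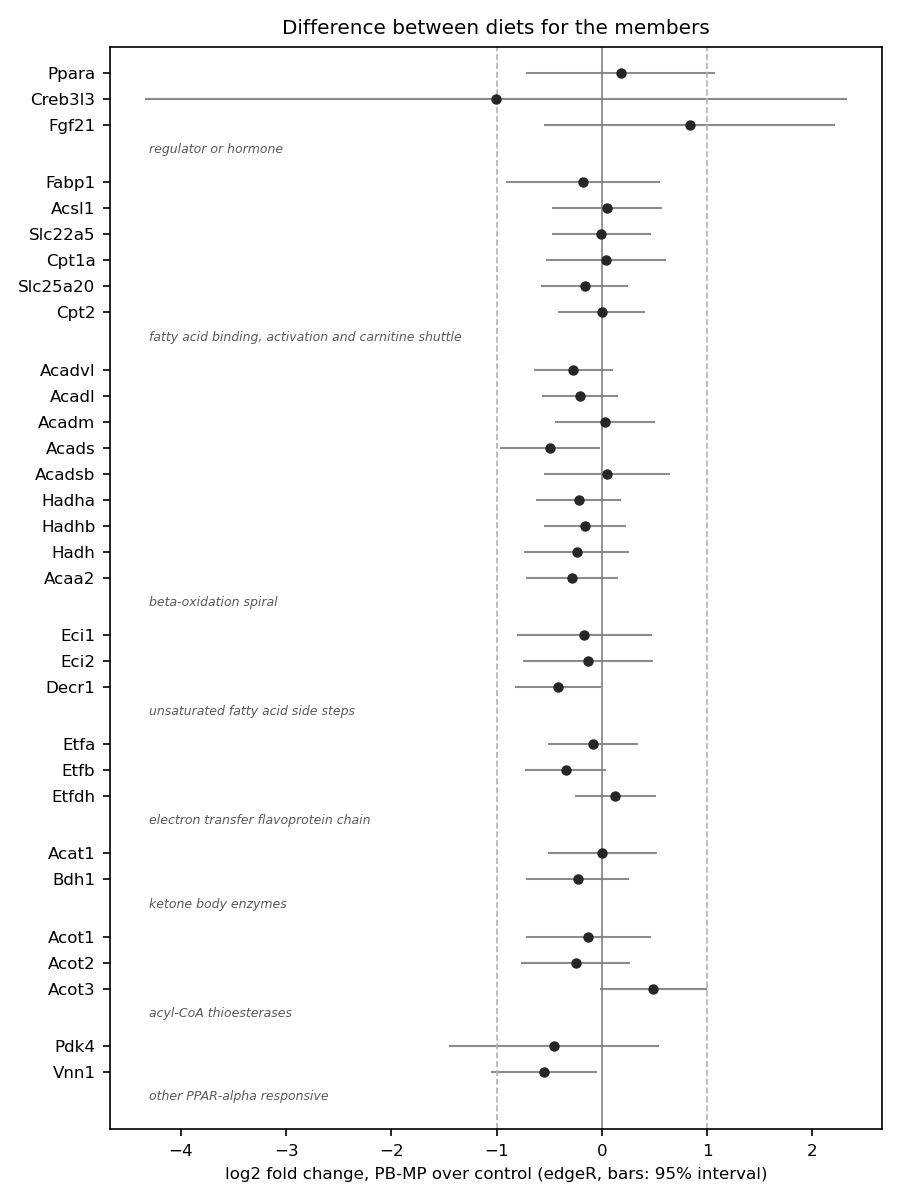
Log2 fold change of each of the 31 members, PB-MP over control, on the horizontal axis, with its 95% interval as a bar and members grouped by role on the vertical axis. Dashed lines mark -1 and 1. Most points lie slightly left of 0, 26 of 31 intervals lie between the dashed lines, and the interval of Creb3l3, from -4.34 to 2.33, is the widest.

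Most point estimates were slightly negative. With TMM scaling 22 of 31 members were below 0 (71.0%, beside 49.4% of all genes), with a median log2 fold change of -0.16 against 0.01 for all genes. With library size as the only scaling, 12 of 31 were below 0, because the median of all genes moved to 0.23 and that of the members to 0.05. Relative to all genes the members' median was -0.17 with either scaling. A change of scaling moves all estimates by about the same amount, so the 2 offsets had to be alike. This offset depended on single libraries. It was -0.29 without control replicate 2, with 26 of 31 members below 0, and -0.06 without PB-MP replicate 2, with 18 of 31 below 0. Control replicate 2 and PB-MP replicate 2 had the largest 18S ribosomal RNA shares, and the part of that in the offset was not tested. PB-MP replicate 2 held the lowest value of 15 of the 31 members, more than any other library (1 to 6 members). Control replicate 1 held the highest value of 10 members and control replicate 3 that of 7.

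**Figure D2:**
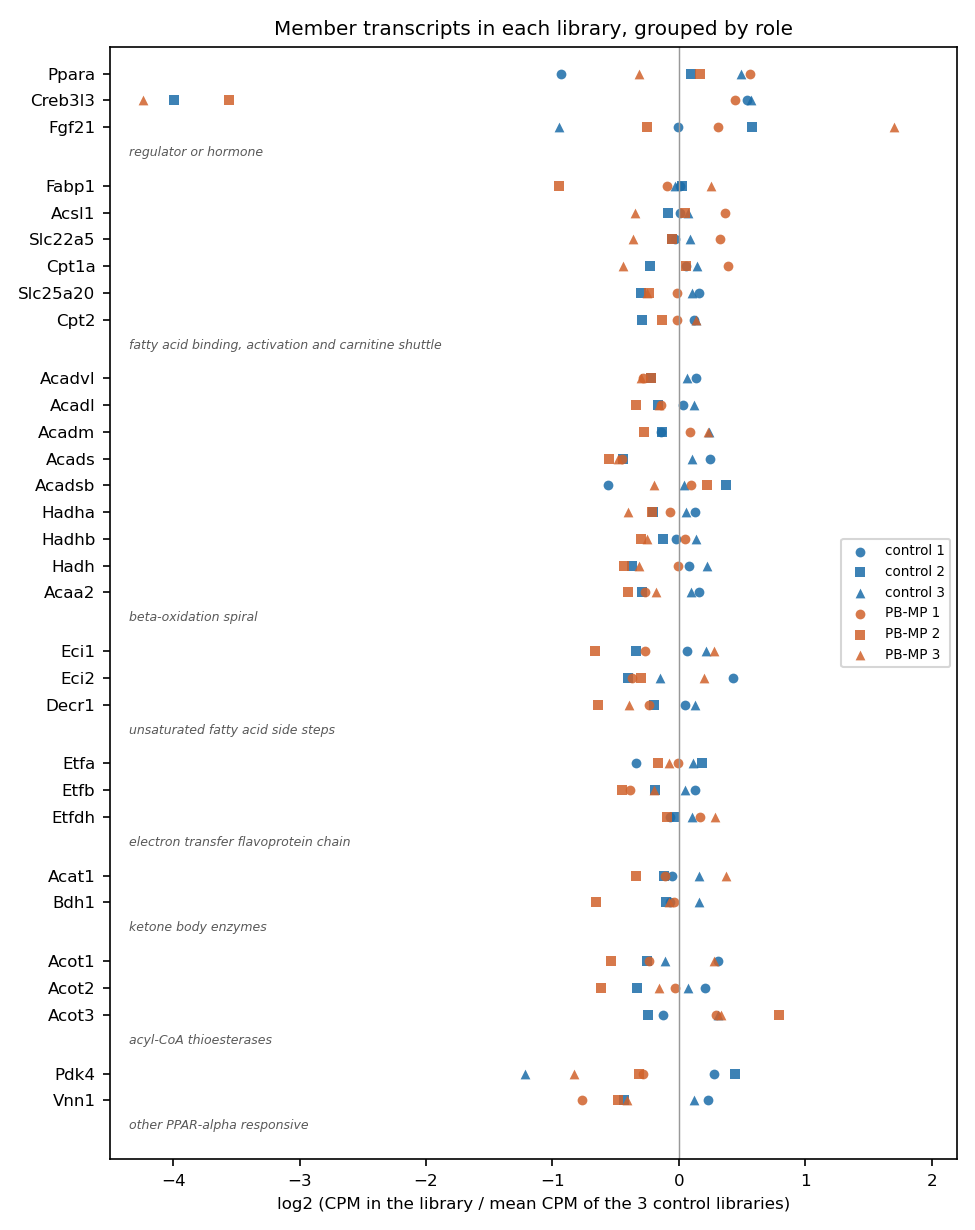
Log2 ratio of the CPM in each library to the mean of the 3 control libraries (horizontal axis) for each member (vertical axis, grouped by role), with colours for diet and shapes for replicate. For most enzymes the 6 libraries lie within 2-fold of each other, control replicate 2 (blue squares) often sits among the PB-MP libraries, and Creb3l3 splits into 2 sets of 3 libraries.

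Levels between genes were compared per kilobase of merged exons (GENCODE M21), in the control libraries. Fabp1 led at 6423 ± 115 CPM per kb (SD, n = 3), followed by the thiolase gene Acaa2 at 634 ± 102 and Etfb at 339.6 ± 37.5. Acadvl, Etfa and Acsl1 came next at 174 ± 21.8, 162 ± 30.0 and 158 ± 8.65, and these neighbours did not differ beyond their SD. Acadm, Acat1 and Acadl, at 126 ± 20.0, 126 ± 12.8 and 126 ± 12.2 CPM per kb, were level with one another. Eci2, Slc22a5 and Acadsb, at 14.8 ± 4.52, 14.5 ± 0.776 and 14.4 ± 4.47, were level with one another. Pdk4 at 3.21 ± 1.60 and Fgf21 at 2.40 ± 1.17 were the lowest and did not differ beyond their SD. Merged exons include rarely used ones, so genes with long alternative exons are placed too low.

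**Figure D3:**
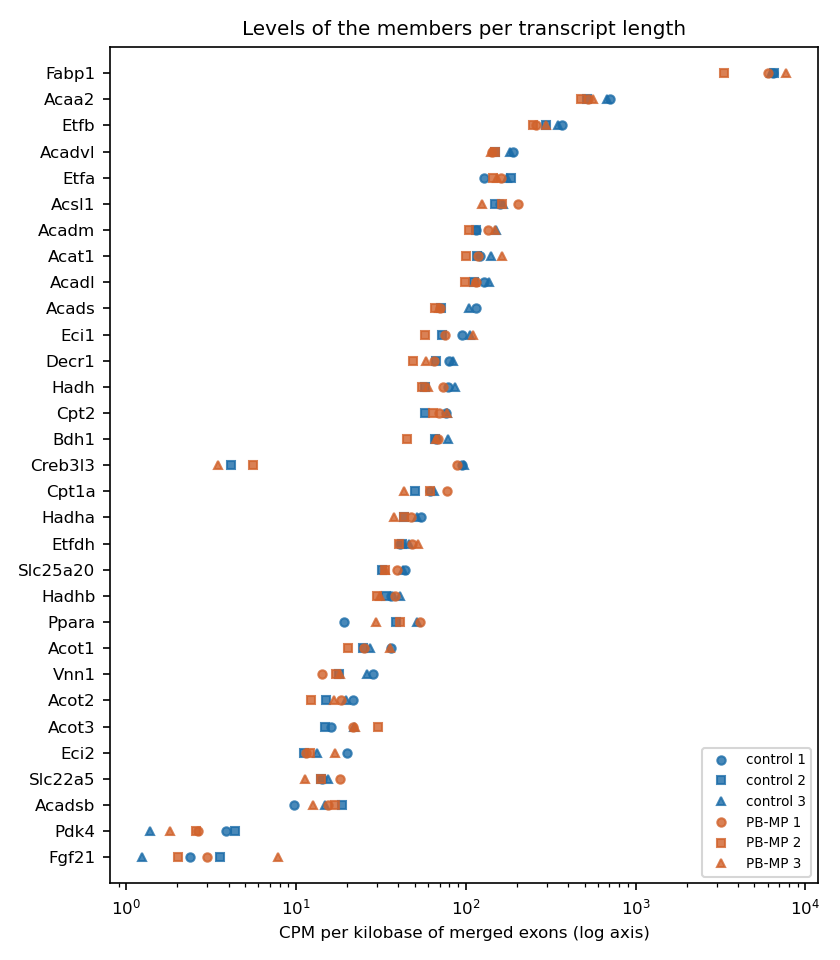
CPM per kilobase of merged exons on a log axis for each member, ordered by the control mean, with 1 point per library (colour for diet, shape for replicate). The levels span from Fabp1, with a control mean of 6423, to Pdk4 and Fgf21, with control means of 3.21 and 2.40.

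Among the regulators, Creb3l3 gave the largest spread of any member. Creb3l3 encodes CREB-H, a liver transcription factor released from the endoplasmic reticulum that acts with PPAR-alpha on fasting genes. Control replicates 1, 2 and 3 gave 288, 12.5 and 295 CPM, and PB-MP replicates 1, 2 and 3 gave 269, 16.8 and 10.5 CPM. Thus 3 libraries, 2 of control and 1 of PB-MP, were high, the other 3 were low, and the split did not follow the diet. The log2 fold change was -1.01 ± 1.42 (SE, edgeR adjusted p = 0.811). It was -3.86 without PB-MP replicate 1 and -0.48 without PB-MP replicate 3, and DESeq2 returned no p for Creb3l3. The gap between its 3 higher and 3 lower libraries was 16.0-fold, where the median gene had 1.08-fold and no other member had a gap above 2.18-fold between any neighbouring libraries.

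Such a gap was rare in these data. Of 12546 genes at a mean of at least 1 CPM, 10 (0.0797%) had a gap between the 3 higher and 3 lower libraries at least as large, Creb3l3 included. Of these 10 genes, named here after their values were seen, 3 divided the same libraries. Lpp, which encodes a LIM-domain protein of cell adhesions, gave 43.1, 0.528 and 36.7 CPM for control and 34.7, 0.638 and 0.564 CPM for PB-MP, in replicate order. The pseudogene Oaz1-ps ran the other way, with 0.165, 41.1 and 0.0285 CPM for control and 0.0634, 39.0 and 40.5 CPM for PB-MP. Its parent gene Oaz1 stayed between 281 and 394 CPM. The other 7 divided the libraries otherwise. No 100-base stretch of the Creb3l3 transcripts in GENCODE M21 occurs in another gene. RefSeq lists 2 start sites for this gene, which counts per gene cannot separate.

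**Figure D4:**
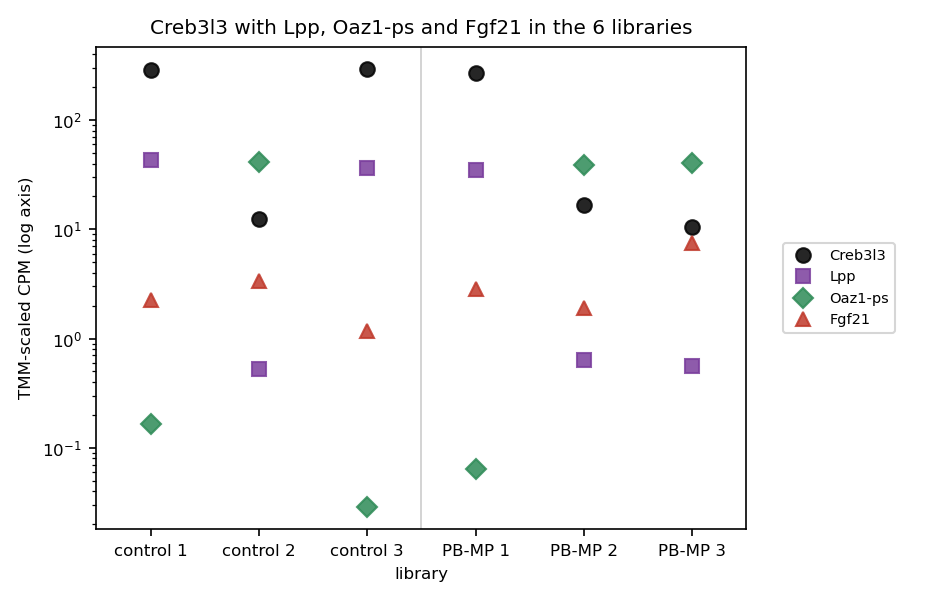
CPM on a log axis (vertical) in each of the 6 libraries (horizontal) for Creb3l3, Lpp, Oaz1-ps and Fgf21. Creb3l3 and Lpp are low and Oaz1-ps is high in control replicate 2 and PB-MP replicates 2 and 3, while Fgf21 does not divide the libraries in this way.

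Ppara, which encodes PPAR-alpha itself, had 73.6, 149.6 and 198 CPM in the control libraries and 207, 157 and 113 CPM in the PB-MP libraries. Control replicate 1 was the lowest, and the groups overlapped (log2 fold change 0.18 ± 0.38, edgeR adjusted p = 0.880). Without control replicate 1 the estimate was -0.14. Fgf21, a hormone that the liver secretes in fasting under PPAR-alpha and CREB-H, was scarce in 5 libraries, at 2.26, 3.40 and 1.18 CPM in control and 2.83 and 1.91 CPM in the first 2 PB-MP replicates. It reached 7.43 CPM in PB-MP replicate 3. The log2 fold change of Fgf21 was 0.83 ± 0.59 with all libraries (edgeR adjusted p = 0.606) and 0.06 without PB-MP replicate 3.

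The genes that bind, activate and import fatty acids lay on both sides of 0, with 2 estimates above and 4 below 0 and a median of -0.00. Fabp1, the abundant liver fatty acid binding protein and a classical PPAR-alpha target, is the single member whose promoter window held a near match to the PPAR response element. The motif searched was AGGTCANAGGTCA on both strands, a direct repeat spaced by 1 base (N), with at most 1 mismatch. The window below is that of RefSeq for Fabp1 on GRCm38.p6, chr6:71199629-71199928, plus strand, from 250 bases before to 50 bases after the start, and is shown because this gene has the highest level among the members. Capitals mark the match, which lies on the minus strand, is centred 61 bases before the start and carries the substitution T4C, counted from the 5′ end of the motif.
Fabp1 promoter: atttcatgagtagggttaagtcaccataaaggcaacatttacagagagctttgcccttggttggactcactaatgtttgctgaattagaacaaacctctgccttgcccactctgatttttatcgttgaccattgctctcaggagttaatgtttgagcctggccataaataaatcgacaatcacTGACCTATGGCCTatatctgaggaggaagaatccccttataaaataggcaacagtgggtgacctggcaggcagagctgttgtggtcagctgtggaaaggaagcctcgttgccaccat
A match of this kind was present for 1 of the 27 members with a RefSeq window (3.70%) and for 174 of all 27025 genes with one (0.644%). It describes letters and not binding, and a missing match in so short a window says nothing of the receptor.

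Fabp1 transcripts were even across control, at 3566, 3608 and 3483 CPM, and spread in PB-MP, at 3328, 1841 and 4233 CPM. PB-MP replicate 2 was the lowest and PB-MP replicate 3 the highest of all 6, so that all controls lay inside the PB-MP range (-0.18 ± 0.31 on the log2 scale, edgeR adjusted p = 0.850). Acsl1, the main long-chain acyl-CoA synthetase of liver, had 1663, 1562 and 1743 CPM in control and 2128, 1711 and 1301 CPM in PB-MP. Cpt1a, the rate-limiting carnitine palmitoyltransferase of the outer membrane, had 468, 384 and 498 CPM in control and 589, 468 and 331 CPM in PB-MP. Slc22a5, the plasma membrane carnitine transporter, had 43.6, 42.8 and 47.3 CPM in control and 55.8, 42.9 and 34.7 CPM in PB-MP. These 3 genes shared an order, with PB-MP replicate 1 the highest and PB-MP replicate 3 the lowest of the 6 libraries, and all controls between them. Their log2 fold changes were 0.05 ± 0.22, 0.04 ± 0.24 and -0.00 ± 0.20 (SE), with 95% intervals from -0.48 to 0.57, -0.53 to 0.61 and -0.47 to 0.47. Slc22a5 shares 12.9% of its 100-base stretches with Slc22a21, so part of its reads may be assigned to either gene.

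The inner membrane steps were tighter. Slc25a20, the carnitine-acylcarnitine exchanger, ranged from 156 to 213 CPM in control and from 161 to 189.7 CPM in PB-MP (log2 fold change -0.16 ± 0.18). Cpt2, the inner membrane carnitine palmitoyltransferase, ranged from 138 to 185 CPM in control and from 154 to 186 CPM in PB-MP. Its log2 fold change was -0.00 ± 0.17 with an interval from -0.41 to 0.41, and both groups had a mean of 169 CPM.

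In the beta-oxidation spiral 7 of 9 genes had estimates below 0, with a median log2 fold change of -0.22 and 0 genes past the threshold. Acads, the short-chain acyl-CoA dehydrogenase, was the furthest from 0 of these 9. The control libraries gave 260.4, 161 and 236 CPM and the PB-MP libraries 161, 149.6 and 157 CPM. The groups were set apart only by the narrow step from 161.4 CPM in control replicate 2 to 160.6 CPM in PB-MP replicate 1. The log2 fold change was -0.49 ± 0.20 (edgeR adjusted p = 0.404), and without control replicate 2 it was -0.70. Acadvl, the very long-chain dehydrogenase of the inner membrane, had 512, 401 and 487 CPM in control and 383, 399 and 379.5 CPM in PB-MP. Here too the controls lay above all PB-MP libraries by a margin that control replicate 2 made small (-0.27 ± 0.16, edgeR adjusted p = 0.540). In GENCODE M21, 42.9% of the exon bases of Acadvl overlap Dvl2 on the opposite strand. Dvl2 had 3.80 to 5.47 CPM in control and 7.96 to 11.6 CPM in PB-MP, and the part of this overlap in the Acadvl values was not tested.

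The other dehydrogenases did not separate the groups. Acadm, the medium-chain enzyme, had 448, 452 and 585 CPM in control and 525, 409.7 and 579 CPM in PB-MP (0.03 ± 0.20). Acadl, the long-chain enzyme, ranged from 225 to 273 CPM in control and 199 to 229 CPM in PB-MP (-0.21 ± 0.15). Acadsb, which acts on short branched acyl-CoA, had 69.9, 134 and 106 CPM in control and 111, 121 and 90.0 CPM in PB-MP (0.05 ± 0.26). Control replicate 1 was thus the lowest library for Acadsb and the highest for Acads and Acadvl, and the ratio of Acadm to Acads reads ran from 1.72 in control replicate 1 to 3.68 in PB-MP replicate 3.

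Hadha and Hadhb encode the alpha and beta subunits of the mitochondrial trifunctional protein, which carries out the last steps of long-chain oxidation, and they lie head to head on the chromosome. In RefSeq on GRCm38.p6 the start of Hadha on the minus strand and that of Hadhb on the plus strand of chromosome 5 are 273 bases apart, and their promoter windows share 228 bases at chr5:30155003-30155230. The plus strand of the shared stretch is shown because both subunits are read from it, Hadhb to the right and Hadha to the left. It has 57.02% G and C, beside a median of 52.7% over all promoter windows.
Hadha-Hadhb shared window: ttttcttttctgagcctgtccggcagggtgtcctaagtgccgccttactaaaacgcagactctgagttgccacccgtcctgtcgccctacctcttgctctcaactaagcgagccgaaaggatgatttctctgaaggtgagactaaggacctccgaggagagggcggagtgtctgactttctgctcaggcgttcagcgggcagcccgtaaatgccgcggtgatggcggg

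The 2 subunit genes, and their ratio, varied little across the libraries. Hadha had 475, 376 and 453 CPM in control and 414, 375 and 329 CPM in PB-MP (log2 fold change -0.22 ± 0.17). Hadhb had 239.8, 224 and 269 CPM in control and 252, 199 and 205 CPM in PB-MP (-0.16 ± 0.17). The groups overlapped for both. The ratio of Hadha to Hadhb reads was 1.78 ± 0.172 (SD, n = 3) for control and 1.71 ± 0.152 for PB-MP. Its 6 values lay within 1.23-fold of each other, where Hadha alone varied 1.44-fold and Hadhb 1.35-fold. Of the 100-base stretches of Hadhb, 14.8% also occur in pseudogenes such as Gm13910. Hadh, the dehydrogenase of shorter hydroxyacyl-CoA, ranged from 286 to 431 CPM in control and from 273 to 367 CPM in PB-MP (-0.24 ± 0.21). The thiolase Acaa2, which releases acetyl-CoA, had 1071, 784 and 1029 CPM in control and 797, 727 and 847 CPM in PB-MP (-0.28 ± 0.19, edgeR adjusted p = 0.583). For Acaa2 control replicate 2 lay inside the PB-MP range, while control replicates 1 and 3 lay above it.

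The side enzymes for unsaturated fatty acids all had estimates below 0 with TMM scaling, and Eci1 and Eci2 turned above 0 with library size only. Decr1, the dienoyl-CoA reductase, stood at 307, 259 and 325 CPM in control and 252, 191 and 226 CPM in PB-MP. The groups did not overlap, the means were 297 ± 34.2 CPM (SD, n = 3) for control and 223 ± 30.6 CPM for PB-MP, and the log2 fold change was -0.42 ± 0.17 (edgeR adjusted p = 0.411). Eci1 and Eci2, the enoyl-CoA isomerases, ranged from 154 to 225 CPM and from 62.0 to 110.0 CPM in control. In PB-MP they ranged from 122 to 235 CPM and from 63.5 to 94.0 CPM, with log2 fold changes of -0.17 ± 0.27 and -0.13 ± 0.26.

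The electron transfer flavoprotein takes electrons from the acyl-CoA dehydrogenases and passes them to ubiquinone through Etfdh. Its beta subunit gene Etfb had 431, 347 and 409 CPM in control and 302, 289 and 345 CPM in PB-MP, without overlap but with control replicate 2 and PB-MP replicate 3 nearly level (-0.34 ± 0.16, edgeR adjusted p = 0.452). The alpha subunit gene Etfa had 234, 337 and 320.4 CPM in control and 295, 265 and 281 CPM in PB-MP (-0.08 ± 0.18). The subunits did not keep a fixed ratio: Etfa to Etfb reads came to 0.544 in control replicate 1 and to 0.784 to 0.978 in the other 5 libraries. In GENCODE M21, 53.0% of the exon bases of Etfb also belong to the gene model Gm45233 on the same strand. The count table has no row named Gm45233, and whether shared reads were handled separately is not given. Etfdh ranged from 307 to 346 CPM in control and from 303 to 393 CPM in PB-MP (0.13 ± 0.16).

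**Figure D5:**
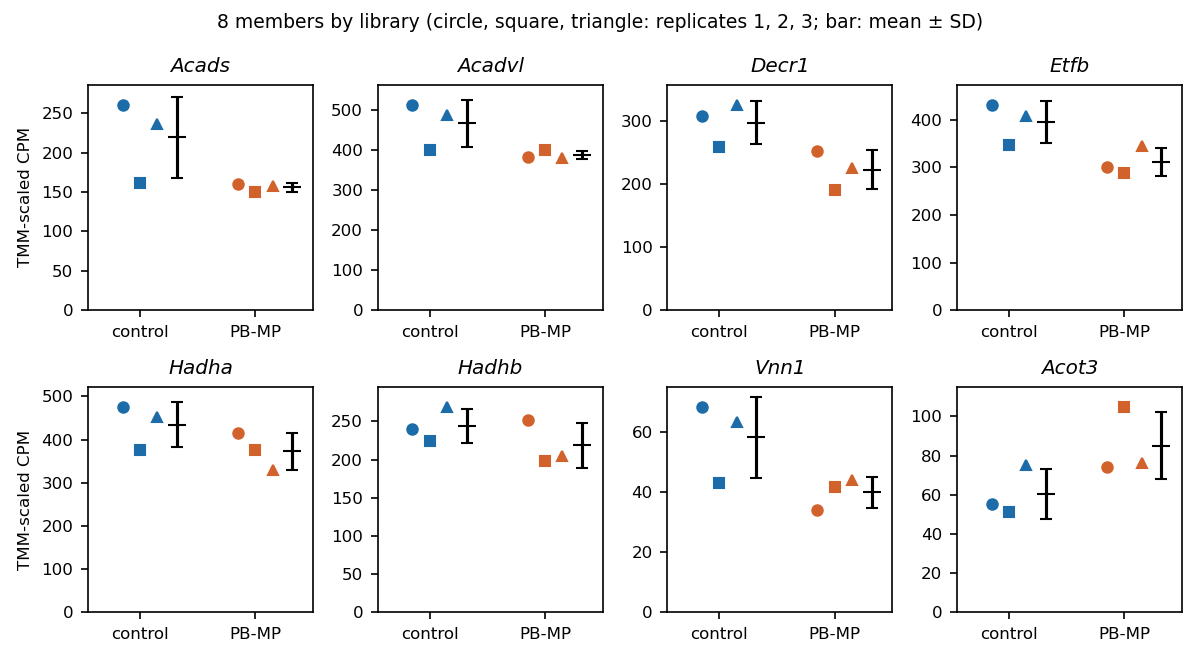
CPM (vertical axis, from 0) in each library for 8 members, with control in blue and PB-MP in orange, shapes for replicates 1, 2 and 3, and the black bar for the mean ± SD. For Acads, Acadvl, Decr1 and Etfb the PB-MP libraries lie below all controls, with control replicate 2 close to them, and for Hadha, Hadhb, Vnn1 and Acot3 the groups overlap.

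For ketone bodies the member genes gave small estimates. Acat1, the mitochondrial acetoacetyl-CoA thiolase, had 456, 438 and 529 CPM in control and 440.4, 374 and 614 CPM in PB-MP (0.00 ± 0.22). Bdh1, which interconverts acetoacetate and beta-hydroxybutyrate, had 260.2, 255 and 306 CPM in control and 266, 174 and 259.6 CPM in PB-MP (-0.23 ± 0.21). The groups overlapped for both genes.

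The acyl-CoA thioesterases, which free CoA from fatty acyl groups, went different ways. Acot3, a peroxisomal family member, had the only estimate of a member above 0.2 other than Fgf21, with 55.4, 51.0 and 74.9 CPM in control and 74.1, 105 and 76.2 CPM in PB-MP. Control replicate 3 lay just inside the PB-MP range (log2 fold change 0.49 ± 0.22, edgeR adjusted p = 0.427). With library size only, Acot3 was the single member whose groups did not overlap. Acot1, the cytosolic form, had 142, 96.5 and 107 CPM in control and 97.9, 79.3 and 139 CPM in PB-MP (-0.13 ± 0.25). Acot2, the mitochondrial form, had 47.5, 32.8 and 43.4 CPM in control and 40.3, 27.0 and 36.9 CPM in PB-MP (-0.25 ± 0.22). The ratio of Acot3 to Acot1 reads ran from 0.389 in control replicate 1 to 1.32 in PB-MP replicate 2, and that of Acot1 to Acot2 from 2.43 to 3.78. Of the 100-base stretches of Acot1 and Acot2, 12.4% and 17.1% also occur in another thioesterase gene of the family. For Acot3 the share is 13.8%, of which 9.53% lies in Gm49366, a gene model that overlaps 11.5% of the Acot3 exon bases on the same strand, so part of these genes' reads is uncertain. The antisense transcript 4732463B04Rik, which overlaps 9.08% of the Acot3 exon bases, had 1.78 to 3.45 CPM in control and 3.03 to 11.3 CPM in PB-MP.

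Vnn1, a pantetheinase that is strongly PPAR-alpha responsive, had 68.2, 43.1 and 63.4 CPM in control and 34.2, 41.6 and 43.9 CPM in PB-MP. It had the smallest adjusted p of the members (log2 fold change -0.55 ± 0.21, edgeR adjusted p = 0.385), with control replicate 2 inside the PB-MP range. Pdk4, the kinase that shuts pyruvate dehydrogenase when fat is burned, had 13.6, 15.3 and 4.83 CPM in control and 9.26, 9.04 and 6.32 CPM in PB-MP. Its control libraries spanned those of PB-MP (-0.46 ± 0.42, and 0.0584 by limma-voom with quality weights). Neither gene passed the threshold.

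The remaining genes of the pathway, from a list drawn up by name, were read with TMM scaling, except in DESeq2 and where library size is named. Of 44 other genes of mitochondrial oxidation and ketone metabolism, edgeR and DESeq2 each called 0, 28 had estimates below 0, and the median was -0.19. At an unadjusted edgeR p below 0.05 there were 3 lower (6.82%, near the 4.74% of all genes) and 0 higher (beside 7.35%). Among them Acad12, an acyl-CoA dehydrogenase family member, was at -0.86 ± 0.29 and Slc27a4, a fatty acid transport protein, at -0.55 ± 0.23. Of 29 tested PPAR-alpha targets outside the members, edgeR called 0 and DESeq2 called 1, Krt23, beside 3.03% of all genes that DESeq2 tested. Of these 29, 21 were below 0, with a median of -0.20. At an unadjusted edgeR p below 0.05 there were 3 lower (10.3%, beside 4.74% of all genes) and 0 higher (beside 7.35%). Estimates for Ehhadh, the peroxisomal bifunctional enzyme, for the fatty acid hydroxylases Cyp4a10 and Cyp4a14, and for Angptl4, a lipoprotein lipase inhibitor, were -0.39 ± 0.23, -0.18 ± 0.24, -0.20 ± 0.21 and -0.06 ± 0.38. The last 3 turned above 0 with library size only. The smallest p of this list were those of Krt23, a keratin, at -1.70 ± 0.32, of Mgll, monoglyceride lipase, at -0.85 ± 0.32, and of Acaa1b, a peroxisomal thiolase, at -0.77 ± 0.31 (edgeR adjusted p of 0.207, 0.367 and 0.389). For Krt23 the DESeq2 adjusted p was 2.09e-04.

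Among 22 partners and coregulators of PPAR-alpha edgeR and DESeq2 each called 0. At an unadjusted edgeR p below 0.05, 1 was lower (4.55%, near the 4.74% of all genes) and 0 were higher (beside 7.35%). Rxra, the main hepatic retinoid X receptor with which PPAR-alpha binds DNA, had 415, 241 and 384 CPM in control and 41.0, 195 and 179 CPM in PB-MP. The groups did not overlap, and PB-MP replicate 1 was far below the rest (log2 fold change -1.33 ± 0.55, edgeR adjusted p = 0.404, and -0.89 without PB-MP replicate 1). In that same library 4 members were at their highest, Ppara, Acsl1, Cpt1a and Slc22a5, and 1, Vnn1, was at its lowest. A link of these values to Rxra was not tested. Ncor1, a corepressor, was at -0.69 ± 0.41 and Sirt1, a deacetylase that acts on this pathway, at 0.46 ± 0.28.

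Markers of other states and cells were read beside the members, with TMM scaling except in DESeq2. Among 13 tested genes of malonyl-CoA and fed-state lipogenesis, which oppose oxidation, 11 were below 0 (median -0.43). Mlxipl, the carbohydrate-responsive factor ChREBP, was at 1.43 ± 0.28 (edgeR adjusted p = 0.207, DESeq2 adjusted p = 1.16e-03) and Me1, malic enzyme, at -0.85 ± 0.33. DESeq2 called Mlxipl alone of these 13 genes, beside 3.03% of all genes that it tested. Medians were -0.06 for 11 fasting-induced glucose genes, 0.11 for 16 clock genes, 0.12 for 12 periportal genes and -0.20 for 12 pericentral genes, with 0 genes called in each by edgeR and by DESeq2. At an unadjusted edgeR p below 0.05, 2 glucose genes of these lists were lower (18.2%, beside 4.74% of all genes). Higher at that level were 1 clock gene and 1 periportal gene (6.25% and 8.33%, near the 7.35% of all genes). No pericentral gene was at that level. Summed Kupffer cell and macrophage markers ran from 153 to 176 CPM in control and came to 186, 162 and 422 CPM in PB-MP replicates 1, 2 and 3, with 9 of 9 estimates above 0. The high sum was that of PB-MP replicate 3 alone, and the other 2 PB-MP libraries were near the controls. Stellate cell and fibroblast markers ran from 297 to 303 CPM in control and from 165 to 285 CPM in PB-MP, with 7 of 8 below 0. Lymphocyte markers summed to 23.1 to 64.5 CPM in control and 13.8 to 18.9 CPM in PB-MP, with 7 of 7 below 0. Neutrophil markers were scarce, at 1.17 to 1.74 CPM in control and 3.04 to 5.48 CPM in PB-MP, with 4 of 4 tested markers above 0 and Ly6g at 0 in every library. Of 8 adipocyte markers, Lep was at 0 in every library and Adipoq and Plin1 stayed at or below 0.0923 CPM, while 4 of 5 tested markers were below 0 (median -2.50). Cidea, a lipid droplet protein, had 81.1, 13.4 and 65.3 CPM in control and 12.7, 2.28 and 13.2 CPM in PB-MP. Cfd, the protease adipsin, had 8.71, 2.19 and 12.0 CPM in control and 0.723, 0.615 and 1.30 CPM in PB-MP, and Retn, the hormone resistin, was at or below 0.333 CPM. The groups did not overlap for these 3 of the 5 tested markers, all lower in PB-MP, beside 8.49% of all genes. They overlapped for Car3, the most abundant of the list, and for Fabp4. Car3 had means of 3054 CPM in control and 2577 CPM in PB-MP (log2 fold change -0.24 ± 0.25). Fabp4 had means of 4.24 and 5.09 CPM (0.26 ± 0.32). Of the cell type markers DESeq2 called lower Cidea and Cfd (of 5 adipocyte), Col1a1 (of 8 stellate cell) and Jchain (of 7 lymphocyte). It called higher Marco (of 9 Kupffer cell) and S100a9 and Csf3r (of 4 neutrophil). The other cell type lists had 0 calls, beside 3.03% of all genes that DESeq2 tested, and edgeR called none. The muscle markers Ckm, Acta1, Myh4 and Tnnt3 were at 0 throughout. In bulk tissue, fewer cells of a type and less RNA per cell cannot be told apart, and the part of these shifts in the members' values was not tested.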

How the data were processed

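Poly(A)-selected liver RNA was sequenced in 6 libraries, 3 per diet, with a directional kit, per the labels' protocols. The authors' values are read counts, whole numbers without normalization, deposited by gene symbol in 1 table of 56674 rows and in 6 single files that were identical to its columns. The submitters' processing notes name bcl2fastq and GRCm39; for the aligner, counter, annotation and strand setting, each is not given in the sources used here.

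Names occur more than once for 939 rows; the copy with the most reads was kept under that name. filterByExpr (minimum count 10, minimum total 15) left 17871 genes, which were scaled by TMM and tested with the quasi-likelihood test of edgeR 4.0.16 (R 4.3.3), with Benjamini-Hochberg adjustment over all of them and a threshold of 0.05. The SE is the log2 fold change divided by the square root of F. Alternatives were other scalings and filters, DESeq2 1.42.0, limma 3.58.1 (voom), robust estimation, a replicate block and libraries left out. No 2 libraries agreed within sampling noise (chi-square per degree of freedom of at least 200.1). Intervals cover the spread between these libraries.

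Members and lists were chosen with earlier results of these data known. Text names all members, 4 classical PPAR-alpha targets, and per pathway or state list the lowest p-values among genes averaging 1 CPM or more; the remainder were named after their values were seen. Some genes that this rule names are not reported here. Lengths, overlaps and shared 100-base stretches (read length is not given) come from GENCODE M21 on GRCm38, and promoters from RefSeq on GRCm38.p6, neither being the build named by the notes. A match of 27 of 31 members by symbol was found among the promoters.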

Additional observations from a re-analysis of the deposited data

How the results depend on the processing

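No member was called under any of the 18 alternative fits, nor at an adjusted p below 0.10. Over all genes 540 were called by DESeq2, 2 with control replicate 2 and also PB-MP replicate 3 dropped, and 0 to 1 with 1 library left out. The members at an unadjusted p below 0.05, 3 with all libraries, numbered 1 with library size only or upper-quartile scaling (Acot3, higher, so that all 3 were lost), 1 with mitochondrial and ribosomal RNA rows left out or no filter (Vnn1, lower), 5 with quality weights, 7 with both of those libraries dropped, and 0 to 6 with 1 library left out (6 without control replicate 2, 0 without control replicate 1 or without PB-MP replicate 2). With the replicate block they numbered 0. Same-numbered libraries deviated together at correlations of -0.12, 0.14 and 0.11, and differently numbered ones at -0.18 to 0.11. With 3 libraries per group these values cannot show whether the numbers mark pairs. By number, the 18S ribosomal RNA share was alike in control and PB-MP: 2.92% and 3.61%, 11.2% and 9.42%, then 1.15% and 0.707%. The labels name no pairs, so the main fit uses none. The members' median was 0.0541 with library size only, and 1 member's groups did not overlap there, against 4. The cause of these changes was not tested.

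Some uncalled estimates changed sign, mostly ones near 0; Pdk4 did so from -0.46. With library size only, Fabp1, Slc22a5, Slc25a20, Cpt2, Acadl, Hadhb, Eci1, Eci2, Etfa and Acot1 came to 0.0466, 0.22, 0.0541, 0.21, 0.0108, 0.0614, 0.0506, 0.0757, 0.14 and 0.0879, and Cyp4a10, Cyp4a14 and Angptl4 to 0.0292, 0.016 and 0.15. Slc22a5 and Cpt2 came to 0.0254 and 0.0337 with upper-quartile scaling, 0.017 and 0.0206 without mitochondrial and ribosomal RNA rows, and 0.0121 and 0.0155 at a minimum count of 50. Cpt2 came to 1e-04 without a filter. Cpt2 and Acat1 came to 0.0074 and -0.0213 with limma-voom and to 0.0075 and -0.0215 with the replicate block. With quality weights Slc22a5, Acadm, Acat1 and Pdk4 came to 0.12, -0.0425, -0.16 and 0.0584. With both libraries dropped, Slc22a5, Acadm and Acat1 came to 0.10, -0.16 and -0.29. With 1 library left out, ranges crossing 0 were -0.14 to 0.51 for Ppara, -0.15 to 0.063 for Cpt2, -0.0841 to 0.16 for Acadm, -0.17 to 0.25 for Acadsb, -0.33 to 0.13 for Eci2, -0.22 to 0.15 for Acat1, -0.38 to 0.0499 for Acot1, -0.53 to 0.19 for Angptl4, -0.14 to 0.21 for Acsl1, -0.17 to 0.23 for Cpt1a, -0.20 to 0.14 for Slc22a5, -0.46 to 0.0893 for Fabp1 and -0.46 to 0.0299 for Eci1.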

Other observations

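Slc27a1, a fatty acid transport protein, had 15.7, 5.48 and 13.1 CPM in the control libraries and 14.8, 7.41 and 6.07 CPM in the PB-MP libraries. Fasn, the fatty acid synthase, had 96.5, 41.6 and 67.7 CPM and then 43.7 to 77.0 CPM. Both were named after their values were seen, among the genes whose log2 CPM over the 6 libraries was most like that of Creb3l3, and nothing in the labels divides the libraries in this way. Apoa4, an apolipoprotein known to answer to CREB-H, had 216, 121 and 119 CPM in control and 238, 129 and 303 CPM in PB-MP. Apoa5, another, had 1381, 681 and 679.9 CPM in control and 899.9, 639.9 and 919.8 CPM in PB-MP.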
